A study of Mus musculus with 18 samples.

Results

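The mRNA of 10 cytokine receptor genes was followed in CD3+ TILs (tumor-infiltrating lymphocytes) of B16-OVA tumors, a mouse melanoma that expresses ovalbumin as a model antigen. The genes were taken by symbol from the 37236 genes of the deposited table, and all 10 were found: Il2rb, Il2rg, Il4ra, Il15ra, Il21r, Il12rb1, Il12rb2, Il18r1, Il18rap and Il10ra. Mice of the C57BL/6 background, either Nr2f6+/+ or Nr2f6-/- (a line back-crossed to C57BL/6), carried tumors grown from 500000 injected cells. They were given 0.5 mg of an antibody against PD-L1 (clone 10F.9G2) or of its control IgG2b (clone LTF-2), first on d3 and then repeatedly, and tumors were taken at d14. The 18 samples were 3 Nr2f6+/+ IgG2b, 3 Nr2f6-/- IgG2b, 6 Nr2f6+/+ anti-PD-L1 and 6 Nr2f6-/- anti-PD-L1 samples. All 4 groups thus carried the same tumor and received an antibody. The mice are described as Nr2f6-deficient, with no restriction of the deletion to T cells, and the labels give no age and do not say whether a sample came from 1 mouse. The p-values therefore measure the spread between these samples. CD4 and CD8 T cells were selected with beads, combined and sorted by CD3, so a value averages over a mixture of T cells, in which fewer cells of a type and less RNA per cell cannot be told apart.

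The receptors are assembled from a few shared chains. The common gamma chain (Il2rg) pairs with Il2rb in the receptors for IL-2 and IL-15, with Il4ra in a receptor for IL-4 and with Il21r in the receptor for IL-21, and Il15ra binds IL-15 and presents it. Signals of these receptors run through JAK kinases and STAT factors and set the growth, survival and differentiation of T cells. Il12rb1 and Il12rb2 form the receptor for IL-12, which acts through STAT4 and favors production of interferon gamma. Il18r1 and Il18rap form the receptor for IL-18, which belongs to the IL-1 receptor family and acts through MyD88 and IRAK kinases, and Il10ra is the ligand-binding chain of the receptor for the inhibitory cytokine IL-10. The 10 genes thus go beyond the gamma-chain and IL-12 receptors alone. NR2F6 is an orphan nuclear receptor that acts as a transcriptional repressor in T cells, and PD-L1 is the ligand of the inhibitory receptor PD-1.

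The library kit reads transcript 3′ ends, and values are normalized counts, that is reads per gene divided by a size factor per sample. Samples held between 12473391 and 18609482 reads on genes, and 3 reads, taken as the smallest level that can be shown, corresponded to between 2.46 and 3.64 normalized counts (counting error only). Nr2f6 had 0 reads in all 9 samples labelled Nr2f6-/- and between 20.2 and 201 normalized counts in the 9 samples labelled Nr2f6+/+. By their library numbers the samples fall into 2 sets. Replicates 1 to 3 of every group belong to the first set, and the second set consists of replicates 4 to 6 of the treated groups. Treatments can therefore be compared within the first set alone, and values within it are given beside those over all samples for the differences between treatments that the text turns on. A figure legend of the study counts fewer anti-PD-L1 samples than the labels do and names none as left out, and all labelled samples were used. T cell markers (Cd3d, Cd3e, Cd3g, Cd2, Cd5 and Lck) were detected in every group. Their sum was between 30627 and 35886 normalized counts in Nr2f6+/+ IgG2b and 36409 and 39476 in Nr2f6-/- IgG2b, without overlap. With anti-PD-L1 it was between 32466 and 53998 in Nr2f6+/+ and 42770 and 50191 in Nr2f6-/-, the latter above both IgG2b groups. Macrophage and monocyte markers were present too and differed between groups. The sum of 14 genes was between 17058 and 20814 in Nr2f6+/+ IgG2b, 9077 and 15411 in Nr2f6-/- IgG2b, 3013 and 8241 in Nr2f6+/+ anti-PD-L1, and 3586 and 5405 in Nr2f6-/- anti-PD-L1. None of the 14 was at 0 throughout a group except Arg1 in Nr2f6-/- anti-PD-L1. Dendritic cell markers summed to between 25.2 and 1386 normalized counts over all samples, natural killer markers to between 1008 and 3715, melanocyte markers to between 736 and 7137, and B cell markers to at most 193. Mast cell and basophil markers were at 0 in both IgG2b groups and summed to at most 70.2 elsewhere, all of it from Gata2. The natural killer markers Ncr1 and Klra4 were at 0 in both IgG2b groups.

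Upstream sequence is shown for the 3 receptor genes whose levels differed most clearly between genotypes under anti-PD-L1 (unadjusted p under 0.05, all lower in Nr2f6-/-): Il4ra, Il21r and Il18r1. Each line gives the 250 bases before the transcription start listed by RefSeq (GRCm38.p6, the assembly called mm10), all on the plus strand. Il4ra is read from chr7:125552021-125552270, Il21r from chr7:125603179-125603428 and Il18r1, which has 3 listed starts, from the most upstream one at chr1:40465302-40465551. Capitals mark matches on either strand to GGAAA, the core letters of NFAT sites, or to AGGTCA, the half-site of many nuclear receptors.
Il4ra: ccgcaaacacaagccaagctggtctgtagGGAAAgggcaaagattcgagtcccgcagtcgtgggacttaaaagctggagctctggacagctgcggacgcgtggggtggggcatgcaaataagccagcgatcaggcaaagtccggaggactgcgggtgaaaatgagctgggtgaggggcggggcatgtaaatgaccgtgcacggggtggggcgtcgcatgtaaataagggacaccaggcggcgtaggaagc
Il21r: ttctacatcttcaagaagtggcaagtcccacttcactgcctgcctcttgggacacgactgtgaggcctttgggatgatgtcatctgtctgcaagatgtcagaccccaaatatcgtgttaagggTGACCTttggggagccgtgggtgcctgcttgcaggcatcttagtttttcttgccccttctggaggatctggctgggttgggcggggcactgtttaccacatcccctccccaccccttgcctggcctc
Il18r1: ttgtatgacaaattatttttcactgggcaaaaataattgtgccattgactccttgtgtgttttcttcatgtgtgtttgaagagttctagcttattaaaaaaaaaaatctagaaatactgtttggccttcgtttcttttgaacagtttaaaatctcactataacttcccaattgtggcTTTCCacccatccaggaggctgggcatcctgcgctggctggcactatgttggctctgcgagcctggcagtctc
The half-site AGGTCA was present in Il21r, on the opposite strand with its far end 127 bases before the start, and not in the windows shown for Il4ra and Il18r1. RefSeq also lists the gene Il21r as beginning at 125603252, inside this window, and the half-site lies after that position. It is thus upstream of the listed start used here but not of the whole gene. Il4ra held 1 GGAAA with its far end 221 bases before the start, and Il18r1 held 1 on the opposite strand at 73 bases. Also searched were TGANTCA for AP-1 and TTCNNNGAA for STAT factors, neither of which was found in these 3 windows. Of all 32851 windows of the same length, 14.02% held AGGTCA, 55.6% GGAAA, 6.75% TGANTCA and 7.02% TTCNNNGAA. Windows were listed for 7 of the 10 genes, and over all their starts AGGTCA was found in 1 gene, GGAAA in 5, TTCNNNGAA in 2 (Il12rb2 and the third start of Il18r1) and TGANTCA in 1 (the second start of Il15ra). Matches are letters only and say nothing of binding.

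Some of the genes are neighbors. Il4ra (chromosome 7, 125552120 to 125579474) and Il21r (125603429 to 125633570) lie 24.0 kb apart on the plus strand. Il18r1 (chromosome 1, 40465552 to 40500854) and Il18rap (40515362 to 40551705) lie 14.5 kb apart, also on the plus strand. Il12rb1 (chromosome 8, 70808449 to 70821424) lies 0.553 Mb from Nr2f6, on the same chromosome as the targeted gene.

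All 10 genes were well measured and passed the filter on low values, which required 10 normalized counts or more on average. The lowest value of any of them rested on 56 reads. The coefficient of variation within a group was between 8.27% and 70.5% over the 40 combinations of gene and group, at least 3.37 times what counting alone gives, so the spread between samples, not depth, set the precision. Differences were tested with limma on log2(normalized count + 1) in one model of the 4 groups, two-sided, with Benjamini-Hochberg adjustment over all 11992 genes that passed the filter.

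**Figure D1:**
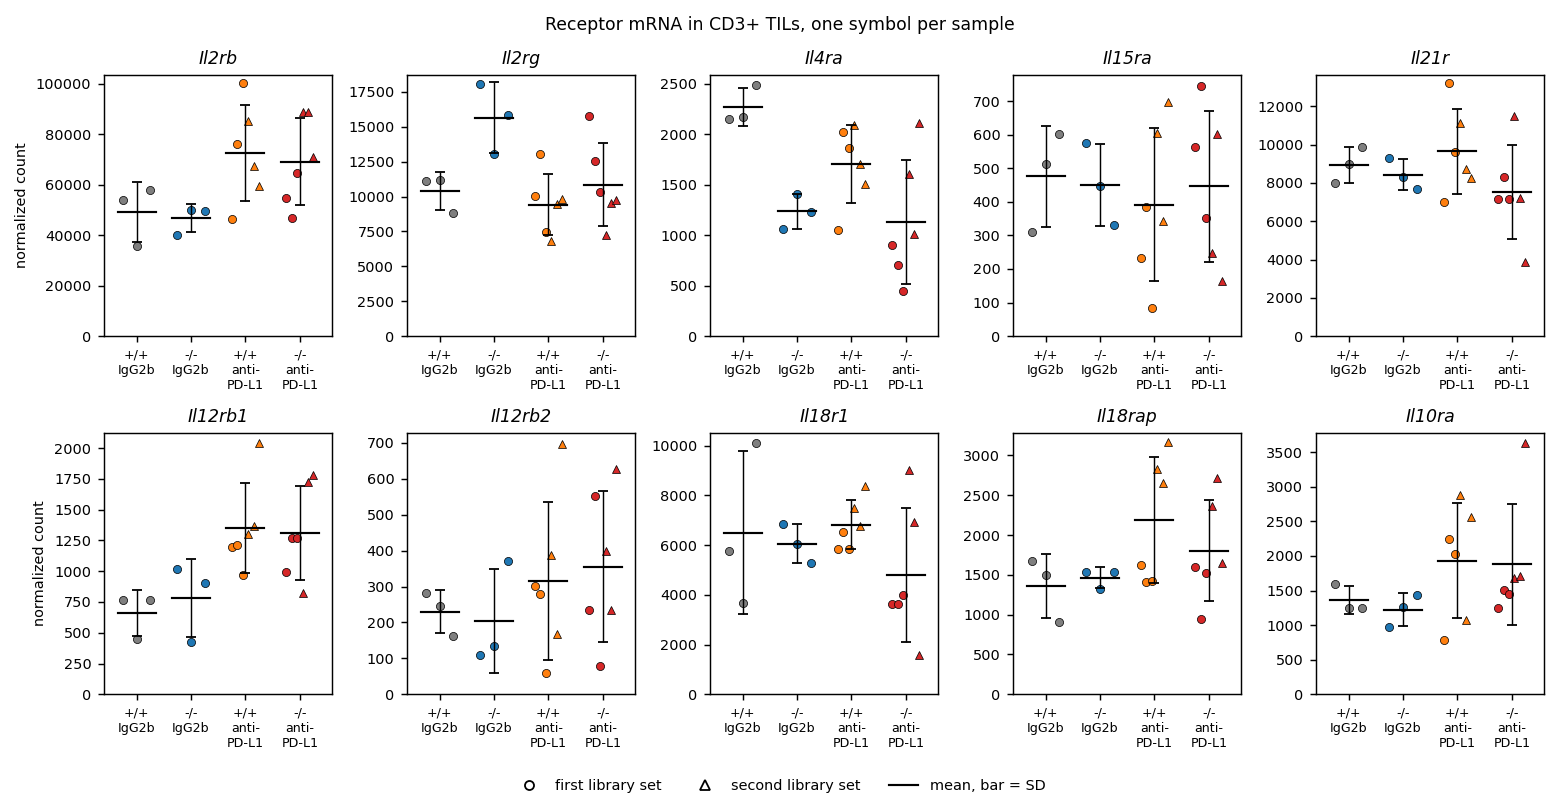
Normalized counts (vertical axis, from 0) of the 10 receptor genes in the 4 groups. Each symbol is 1 sample, circles for the first and triangles for the second library set, lines are means and bars the SD (n = 3 with IgG2b, n = 6 with anti-PD-L1). Il4ra is highest in the 3 Nr2f6+/+ IgG2b samples, which lie above all other samples, and Il12rb1 is higher in all 6 Nr2f6+/+ anti-PD-L1 samples than in the 3 Nr2f6+/+ IgG2b samples.

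No receptor gene passed an adjusted p of 0.05 in any of the 6 comparisons. With Nr2f6-/- set against Nr2f6+/+ under anti-PD-L1 the same test called 0.175% of all genes, under IgG2b 0% and for anti-PD-L1 against IgG2b 0.242% in Nr2f6+/+ and 0.325% in Nr2f6-/-. Nr2f6-/- anti-PD-L1 against Nr2f6+/+ IgG2b, the combination against the control, called 0.617% of all genes, and the interaction of genotype and treatment 0%. On the whole reads recovered from the values, edgeR and DESeq2 also called none of the 10 in any comparison. Of all 11992 genes edgeR called between 0 (genotypes under IgG2b and interaction) and 41 (combination against the control). DESeq2 called between 76 (interaction) and 230 (anti-PD-L1 in Nr2f6-/-) of them, with 88 between genotypes under IgG2b. Treatment is partly tied to the library set. Under some alternatives limma called 1 of the 10, Il4ra, in the combination against the control. These were the set as a covariate (adjusted p = 0.0178, with 88 of all 11992 genes called) and the first set alone (0.0205, 50 called). The others were sample weights (0.00856, 300 called), the replicate block (0.0332, 79 called) and the fit without replicate 6 of Nr2f6-/- anti-PD-L1 (0.0309, 55 called). The main fit called 74 of all genes in this comparison. At an unadjusted p under 0.05 limma counted 3 of the 10 genes between genotypes under anti-PD-L1, where 9.73% of all genes did, and 2 between genotypes under IgG2b, where 5.35% did. It counted 3 for anti-PD-L1 in Nr2f6+/+ (7.24% of all genes), 3 for anti-PD-L1 in Nr2f6-/- (9.7%), 3 for the combination against the control (9.04%) and 0 for the interaction (4.97%). The comparisons share groups and are not independent of each other. The values below describe sizes and spread for genes of which none passed the adjusted threshold in the main fit over all samples.

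As a group the 10 genes did not move in one direction. Their median log2 fold change was -0.06 between genotypes under anti-PD-L1 (4 higher, 6 lower), beside 0.00 for all genes tested, and -0.06 under IgG2b (4 higher, 6 lower), beside -0.06. For anti-PD-L1 against IgG2b it was 0.16 in Nr2f6+/+ (7 higher, 3 lower), beside -0.10 for all genes, and 0.03 in Nr2f6-/- (5 higher, 5 lower), beside -0.04. For the combination against the control it was 0.20 (6 higher, 4 lower), beside -0.12. Groups that did not overlap at all were counted as well. This held for 2 of the 10 genes between genotypes under IgG2b, Il2rg and Il4ra, where it held for 14.2% of all genes, and for 0 of 10 under anti-PD-L1, against 0.592%. It held for 2 for anti-PD-L1 in Nr2f6+/+, Il4ra and Il12rb1, against 4.54%, for 0 in Nr2f6-/-, against 5.12%, and for the same Il4ra and Il12rb1 in the combination against the control, against 6.17% of all genes.

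**Figure D2:**
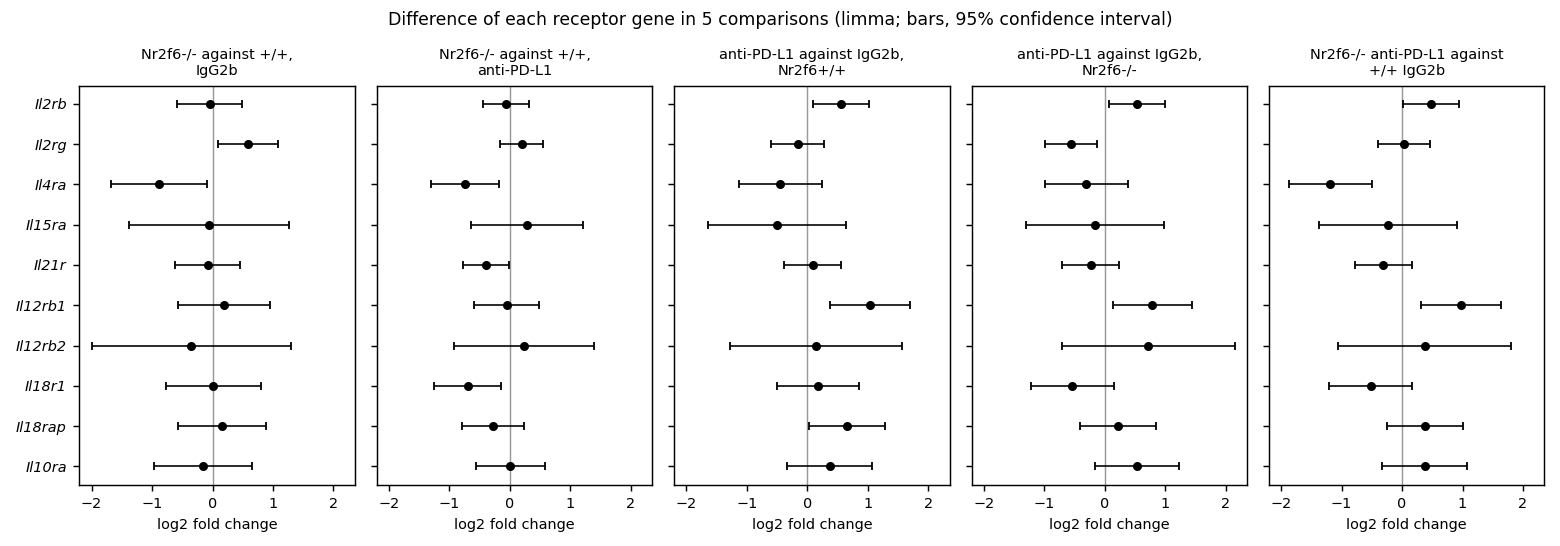
Log2 fold change (horizontal axis) of each receptor gene in 5 comparisons, points with 95% confidence intervals from limma. The intervals of Il4ra lie below 0 in both comparisons of genotypes and in the comparison of the combination with the control, and those of Il12rb1 above 0 in the 3 comparisons of an anti-PD-L1 with an IgG2b group, before adjustment for the number of genes.

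Il4ra, the chain that binds IL-4 and, together with Il13ra1, IL-13, showed the largest difference of the set relative to its error. In Nr2f6+/+ IgG2b it stood at 2152, 2173 and 2488 normalized counts. In Nr2f6-/- IgG2b it stood at 1064, 1412 and 1229. The samples of the 2 genotypes did not overlap under IgG2b. In Nr2f6+/+ anti-PD-L1 it ran from 1048 to 2093 with a median of 1786, and in Nr2f6-/- anti-PD-L1 from 443 to 2105 with a median of 955. Every sample of the other 3 groups was below the lowest Nr2f6+/+ IgG2b sample. In the order of the means, Nr2f6+/+ IgG2b (2271 ± 188, SD, n = 3), Nr2f6+/+ anti-PD-L1 (1706 ± 386, SD, n = 6), Nr2f6-/- IgG2b (1235 ± 174, SD, n = 3) and Nr2f6-/- anti-PD-L1 (1128 ± 616, SD, n = 6), only the first pair of neighbors did not overlap. For the combination against the control the log2 fold change was -1.19 (standard error 0.335, 95% interval -1.88 to -0.50, limma adjusted p = 0.113). Between genotypes it was -0.88 under IgG2b (standard error 0.387, adjusted p = 0.900) and -0.74 under anti-PD-L1 (standard error 0.274, adjusted p = 0.352). Anti-PD-L1 against IgG2b gave -0.44 in Nr2f6+/+ (95% interval -1.13 to 0.24) and -0.30 in Nr2f6-/- (-0.99 to 0.38) over all samples, values that differ within the first library set as given next, and the interaction was 0.14 (-0.83 to 1.11).

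The differences in Il4ra that involve an anti-PD-L1 group were larger in size within the first library set than over all samples. Whether they depend on the set was not tested. In Nr2f6-/- anti-PD-L1 the first set held 897, 703 and 443 normalized counts and the second set 1604, 1012 and 2105, so that the sets did not overlap. The share of all genes whose sets do not overlap within a group was not counted, here or for the genes below. In Nr2f6+/+ anti-PD-L1 the first set held 1048, 2018 and 1867 and the second 2093, 1704 and 1508, and the sets overlapped. Within the first set alone the log2 fold change of the combination against the control was -1.79 (limma adjusted p = 0.0205), which passed the threshold, and between genotypes under anti-PD-L1 it was -1.27 (adjusted p = 0.0911). For anti-PD-L1 against IgG2b the first set gave -0.52 in Nr2f6+/+ (unadjusted p = 0.110) and -0.91 in Nr2f6-/- (unadjusted p = 0.00931, adjusted p = 0.326), and the fit with the library set as a covariate gave -0.78 (unadjusted p = 0.0218, adjusted p = 0.582) and -0.64 (unadjusted p = 0.0560). Within the second set alone, the difference between genotypes under anti-PD-L1 was -0.22 (unadjusted p = 0.493). Without replicate 6 of Nr2f6-/- anti-PD-L1, the sample at 2105, the combination against the control came to -1.41 (adjusted p = 0.0309). The macrophage and monocyte marker sum moved in the same order as Il4ra between the IgG2b groups and between treatments in both genotypes, with the ranges given above. Between genotypes under anti-PD-L1 the mean marker sum, like that of Il4ra, was lower in Nr2f6-/- (4522 against 5605 in Nr2f6+/+). Both overlapped between these groups, the marker sums with 3013 to 8241 in Nr2f6+/+ and 3586 to 5405 in Nr2f6-/-. Nr2f6+/+ anti-PD-L1 against Nr2f6-/- IgG2b went opposite ways, with mean Il4ra of 1706 against 1235 and mean marker sums of 5605 against 12413. In Nr2f6-/- anti-PD-L1 Il4ra was higher in the second library set. The marker sums of that group were 4941, 4202 and 5405 in the first set and 3586, 3829 and 5172 in the second. The part of macrophages and monocytes in the differences of Il4ra was not tested.

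Il2rg, the common gamma chain itself, was higher in Nr2f6-/- than in Nr2f6+/+ TILs under IgG2b before adjustment. It stood at 11121, 11206 and 8815 normalized counts in Nr2f6+/+ IgG2b. In Nr2f6-/- IgG2b it stood at 18096, 13073 and 15826, all above the former. With anti-PD-L1 it ran from 6835 to 13046 (median 9625) in Nr2f6+/+ and from 7218 to 15783 (median 10014) in Nr2f6-/-, and these groups overlapped widely. Between genotypes the log2 fold change was 0.59 under IgG2b (standard error 0.245, limma adjusted p = 0.884) and 0.19 under anti-PD-L1 (95% interval -0.16 to 0.55). Anti-PD-L1 against IgG2b gave -0.56 in Nr2f6-/- (standard error 0.212, adjusted p = 0.335) and -0.16 in Nr2f6+/+ (-0.60 to 0.27, and -0.06 within the first library set). The interaction, -0.40 (-1.01 to 0.22), was not past the threshold, so a difference of the treatment effect between genotypes was not shown. In Nr2f6-/- anti-PD-L1 the first library set held 15783, 12580 and 10301 and the second 7218, 9564 and 9727, without overlap, and within the first set the treatment difference was -0.29 (unadjusted p = 0.205). All neighbors in the order of the means overlapped, from Nr2f6-/- IgG2b (15665 ± 2515, SD, n = 3) down to Nr2f6+/+ anti-PD-L1 (9433 ± 2205, SD, n = 6).

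Il2rb, the signaling chain of the IL-2 and IL-15 receptors, was higher with anti-PD-L1 in both genotypes before adjustment. With IgG2b it stood at 53875, 35553 and 58056 normalized counts in Nr2f6+/+ and at 40292, 50134 and 49586 in Nr2f6-/-. With anti-PD-L1 it ran from 46491 to 100473 (median 71719) in Nr2f6+/+ and from 46709 to 88811 (median 67906) in Nr2f6-/-. The treated groups reached higher but overlapped with both IgG2b groups at their lower end. Anti-PD-L1 against IgG2b gave a log2 fold change of 0.55 in Nr2f6+/+ (standard error 0.227, limma adjusted p = 0.575) and 0.53 in Nr2f6-/- (standard error 0.227, adjusted p = 0.418). The difference between genotypes was -0.07 under anti-PD-L1 (95% interval -0.44 to 0.31) and -0.05 under IgG2b (-0.59 to 0.48). Within the first library set the treatment difference was 0.56 in Nr2f6+/+ (unadjusted p = 0.0437) and 0.24 in Nr2f6-/- (unadjusted p = 0.356). In Nr2f6-/- anti-PD-L1 the second set (88678, 88811 and 71021) lay above the first (54834, 46709 and 64791). The combination against the control was 0.48 over all samples (adjusted p = 0.516) and 0.19 within the first set (unadjusted p = 0.462).

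Il15ra, the high-affinity chain for IL-15, was low and scattered. Its samples ran from 311 to 603 normalized counts in Nr2f6+/+ IgG2b, from 331 to 575 in Nr2f6-/- IgG2b, from 84.7 to 697 in Nr2f6+/+ anti-PD-L1 and from 163 to 746 in Nr2f6-/- anti-PD-L1. All neighbors in the order of the means overlapped. Within the first library set it was higher in Nr2f6-/- than in Nr2f6+/+ under anti-PD-L1, with a log2 fold change of 1.42 (unadjusted p = 0.0201, adjusted p = 0.345), and within the second set the value had the other sign, -0.85 (unadjusted p = 0.190). Over all samples it was 0.28 (95% interval -0.65 to 1.21).

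Il21r, the specific chain of the IL-21 receptor and the neighbor of Il4ra on chromosome 7, varied less. It stood at 7980, 8970 and 9853 normalized counts in Nr2f6+/+ IgG2b and at 9285, 8304 and 7707 in Nr2f6-/- IgG2b. With anti-PD-L1 it ran from 6984 to 13198 (median 9193) in Nr2f6+/+ and from 3878 to 11490 (median 7203) in Nr2f6-/-. All neighbors in the order of the means overlapped. Nr2f6-/- against Nr2f6+/+ gave a log2 fold change of -0.40 under anti-PD-L1 (standard error 0.188, 95% interval -0.78 to -0.01, limma adjusted p = 0.503) and -0.08 under IgG2b (-0.63 to 0.46). It was -0.35 within the first library set and -0.44 within the second, each with an unadjusted p over 0.05 (0.107 and 0.297). Without replicate 6 of Nr2f6-/- anti-PD-L1, which held the lowest value, it was -0.22. Under IgG2b, where Il4ra was at -0.88, the samples of Il21r overlapped between genotypes, and a test of one gene against the other was not run.

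Il12rb1, the chain shared by the receptors for IL-12 and IL-23, was higher with anti-PD-L1 in both genotypes before adjustment. With IgG2b it stood at 768, 445 and 769 normalized counts in Nr2f6+/+ and at 1018, 422 and 903 in Nr2f6-/-. With anti-PD-L1 it ran from 967 to 2044 (median 1257) in Nr2f6+/+ and from 820 to 1780 (median 1271) in Nr2f6-/-. Both treated groups lay above all 3 Nr2f6+/+ IgG2b samples, while Nr2f6-/- anti-PD-L1 overlapped with Nr2f6-/- IgG2b. With anti-PD-L1 the log2 fold change was 1.03 in Nr2f6+/+ (standard error 0.321, 95% interval 0.38 to 1.69, limma adjusted p = 0.285) and 0.79 in Nr2f6-/- (standard error 0.321, 0.13 to 1.45, adjusted p = 0.394). The combination against the control gave 0.98 (adjusted p = 0.203). Within the first library set these values were 0.80 (unadjusted p = 0.0367), 0.68 (unadjusted p = 0.0716) and 0.87 (unadjusted p = 0.0256). Between genotypes the difference was -0.06 under anti-PD-L1 (-0.59 to 0.48) and 0.19 under IgG2b (-0.57 to 0.95), and the interaction was -0.24 (-1.17 to 0.69). The macrophage and monocyte marker sum went the other way and was lower with anti-PD-L1. The T cell marker sum was between 30627 and 35886 in Nr2f6+/+ IgG2b and between 32466 and 53998 in Nr2f6+/+ anti-PD-L1. In Nr2f6-/- the T cell marker sum was between 36409 and 39476 with IgG2b and between 42770 and 50191 with anti-PD-L1, without overlap. The part of these cell types in the values of Il12rb1 was not tested.

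Il12rb2, the chain that is specific to the IL-12 receptor and is induced in Th1 cells, had the widest relative range of the 10 genes, its highest sample being 11.9 times its lowest. Samples ran from 163 to 282 normalized counts in Nr2f6+/+ IgG2b, from 109 to 371 in Nr2f6-/- IgG2b, from 58.5 to 697 in Nr2f6+/+ anti-PD-L1 and from 79.0 to 628 in Nr2f6-/- anti-PD-L1. All neighbors in the order of the means overlapped. The widest of its intervals was that of the interaction, 0.58 (-1.43 to 2.60), and the log2 fold change for anti-PD-L1 was 0.14 in Nr2f6+/+ (-1.29 to 1.56) and 0.72 in Nr2f6-/- (-0.70 to 2.15). Within the first library set these were -0.39 and 0.30, so that the sign in Nr2f6+/+ turned, and with the set as a covariate -0.34 and 0.25. Both intervals over all samples include 0 and also the values found for Il12rb1 in the same comparisons.

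Il18r1, the ligand-binding chain of the IL-18 receptor, was lower in Nr2f6-/- than in Nr2f6+/+ TILs under anti-PD-L1 before adjustment. It stood at 5769, 3654 and 10101 normalized counts in Nr2f6+/+ IgG2b and at 6853, 6065 and 5279 in Nr2f6-/- IgG2b. In Nr2f6+/+ anti-PD-L1 it ran from 5844 to 8378 with a median of 6645. In Nr2f6-/- anti-PD-L1 it ran from 1569 to 9007 with a median of 3822. In the latter group 4 of the 6 samples (3624, 3645, 3999 and 1569) lay below every Nr2f6+/+ anti-PD-L1 sample, and the other two, 9007 and 6926, lay within or above that range. The log2 fold change between genotypes under anti-PD-L1 was -0.70 (standard error 0.273, 95% interval -1.26 to -0.14, limma adjusted p = 0.372). It was -0.69 within the first library set (unadjusted p = 0.0190) and -0.71 within the second (unadjusted p = 0.307). Without replicate 6 of Nr2f6-/- anti-PD-L1, at 1569, it was -0.42. Under IgG2b the difference between genotypes was 0.01 (-0.77 to 0.80), and the interaction was -0.71 (-1.68 to 0.25, unadjusted p = 0.141), so that a difference between treatments was not shown. All neighbors in the order of the means overlapped.

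Il18rap, the signaling chain of the IL-18 receptor, differed more between library sets than between groups. With IgG2b it stood at 1672, 1501 and 905 normalized counts in Nr2f6+/+ and at 1539, 1318 and 1540 in Nr2f6-/-. In Nr2f6+/+ anti-PD-L1 the first set held 1625, 1412 and 1420 and the second 2832, 2658 and 3172. In Nr2f6-/- anti-PD-L1 the first set held 1600, 947 and 1525 and the second 2362, 2710 and 1654. In both groups every sample of the second set lay above every sample of the first. The log2 fold change for anti-PD-L1 in Nr2f6+/+ was 0.65 over all samples (standard error 0.308, limma adjusted p = 0.669) and 0.17 within the first set (unadjusted p = 0.548). With the library set as a term of the model, fitted after this had been seen in the values, the second set was higher than the first by a log2 of 0.84 (standard error 0.196, unadjusted p = 0.000179, adjusted p = 0.0563), where 0.292% of all genes passed an adjusted p of 0.05. For the other 9 genes this term had adjusted p-values between 0.265 and 0.899. The set is known only from the library numbers, and what else differed between the sets was not tested.

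Il10ra, the ligand-binding chain of the IL-10 receptor, ran from 1242 to 1590 normalized counts in Nr2f6+/+ IgG2b and from 972 to 1434 in Nr2f6-/- IgG2b. With anti-PD-L1 it ran from 788 to 2882 in Nr2f6+/+ and from 1253 to 3640 in Nr2f6-/-. All neighbors in the order of the means overlapped. The log2 fold change for anti-PD-L1 was 0.37 in Nr2f6+/+ (95% interval -0.33 to 1.07) and 0.54 in Nr2f6-/- (-0.16 to 1.23), and the difference between genotypes under anti-PD-L1 was 0.00 (-0.57 to 0.57). Within the first library set the treatment differences were 0.18 and 0.21. In Nr2f6-/- anti-PD-L1 the second set (1684, 1716 and 3640) lay above the first (1253, 1513 and 1455).

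**Figure D3:**
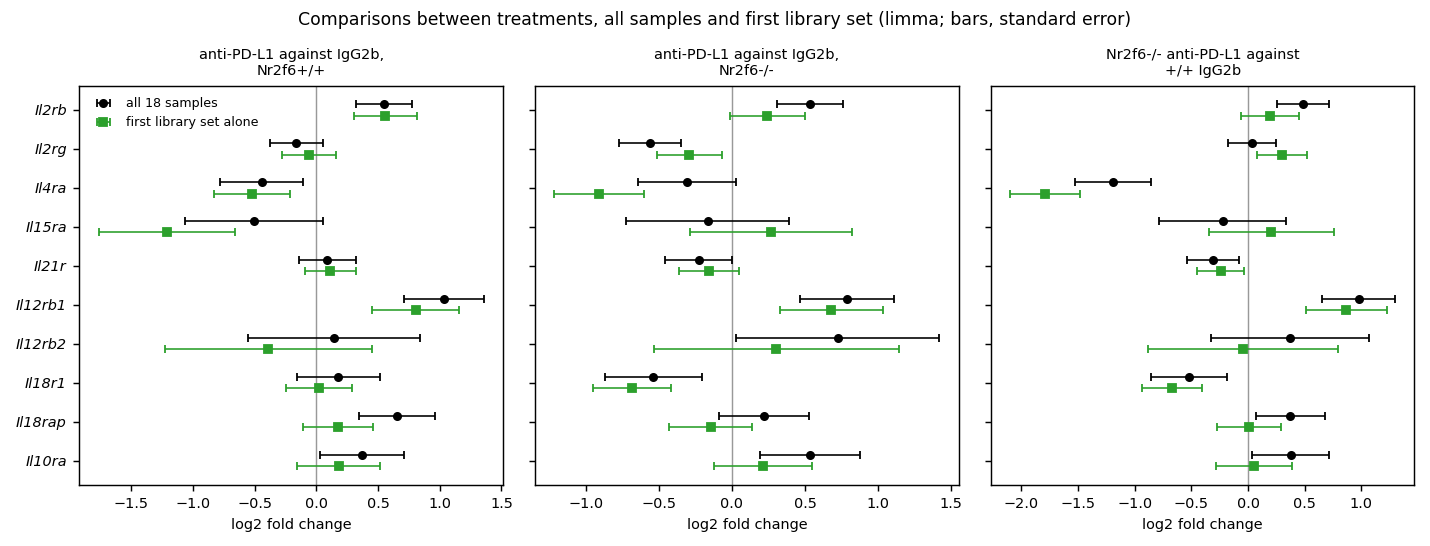
Log2 fold change (horizontal axis) of each receptor gene in the 3 comparisons of a treated with an IgG2b group, over all 18 samples (circles) and within the first library set alone (squares), with standard errors from limma. The value of Il4ra in the comparison of the combination with the control lies at -1.19 over all samples and -1.79 within the first set, and that of Il18rap in Nr2f6+/+ at 0.65 and 0.17.

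Receptors act as complexes, and the 2 chains of a receptor can be set against each other within a sample, where the size factor cancels. The ratio is on the log2 scale of the normalized count + 1. Its level depends on how well each 3′ end is captured, so only differences between samples are read. The ratio of Il2rb to Il2rg was 2.22 ± 0.53 (SD, n = 3) in Nr2f6+/+ IgG2b, 1.58 ± 0.40 (SD, n = 3) in Nr2f6-/- IgG2b, 2.93 ± 0.63 (SD, n = 6) in Nr2f6+/+ anti-PD-L1 and 2.67 ± 0.72 (SD, n = 6) in Nr2f6-/- anti-PD-L1. The 3 Nr2f6-/- IgG2b samples (1.15 to 1.94) lay below all Nr2f6+/+ anti-PD-L1 samples (2.21 to 3.76), and the other pairs of groups overlapped. In Nr2f6-/- anti-PD-L1 this ratio was 1.80, 1.89 and 2.65 in the first library set and 3.62, 3.21 and 2.87 in the second, without overlap. The ratio of Il12rb2 to Il12rb1 was between -2.23 and -0.86 in Nr2f6+/+ IgG2b, -3.21 and -1.28 in Nr2f6-/- IgG2b, -4.02 and -1.55 in Nr2f6+/+ anti-PD-L1, and -3.99 and -1.04 in Nr2f6-/- anti-PD-L1. The ratio of Il18rap to Il18r1 was between -3.48 and -1.28 in Nr2f6+/+ IgG2b, -2.20 and -1.78 in Nr2f6-/- IgG2b, -2.20 and -1.35 in Nr2f6+/+ anti-PD-L1, and -1.94 and 0.08 in Nr2f6-/- anti-PD-L1. For both of these receptors every pair of groups overlapped. In Nr2f6+/+ anti-PD-L1 the ratio of Il18rap to Il18r1 was -1.85, -2.20 and -2.05 in the first set. It was -1.41, -1.35 and -1.40 in the second set, without overlap, while in Nr2f6-/- anti-PD-L1 the sets overlapped. No test was run on the ratios.

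**Figure D4:**
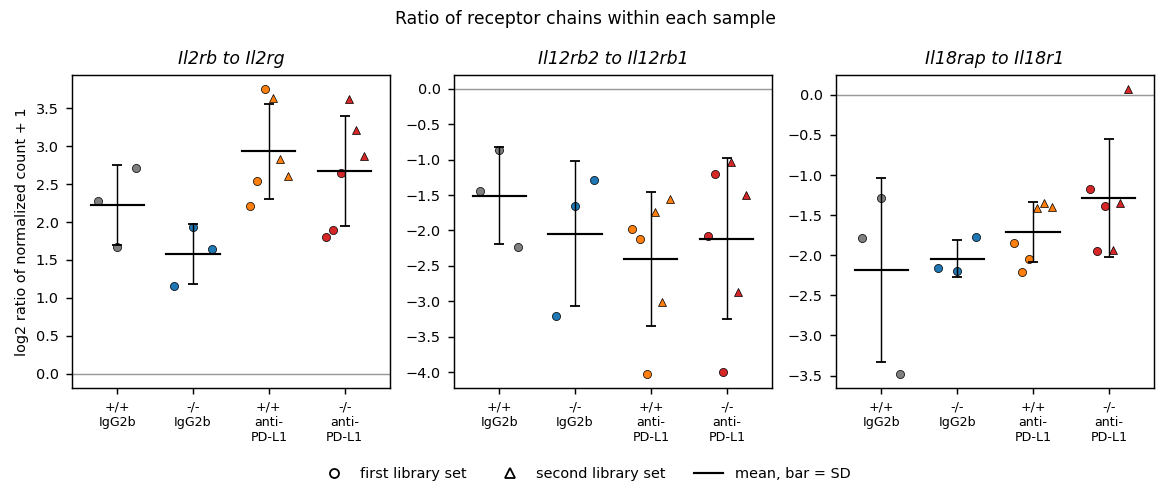
Log2 ratio of the normalized counts + 1 of 2 receptor chains (vertical axis) in each sample of the 4 groups, circles for the first and triangles for the second library set, lines for means and bars for the SD (n = 3 with IgG2b, n = 6 with anti-PD-L1). The ratio of Il2rb to Il2rg lies between 1.15 and 1.94 in Nr2f6-/- IgG2b, below the 6 Nr2f6+/+ anti-PD-L1 samples, and the groups overlap for the other two ratios.

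Of the chains that complete these receptors, Il2ra and Il7r had lower means with anti-PD-L1 in both genotypes, and none passed the adjusted threshold. Il2ra, which with Il2rb and Il2rg forms the high-affinity IL-2 receptor and is high on regulatory T cells, had 1173 ± 95.8 normalized counts (SD, n = 3) in Nr2f6+/+ IgG2b and 1337 ± 177 (SD, n = 3) in Nr2f6-/- IgG2b. Under anti-PD-L1 the Nr2f6+/+ samples had 761 ± 318 (SD, n = 6), and the Nr2f6-/- samples 711 ± 192 (SD, n = 6). The log2 fold change for anti-PD-L1 was -0.80 (limma adjusted p = 0.685) and -0.95 (adjusted p = 0.394), respectively, and -1.29 (adjusted p = 0.329) and -0.89 (adjusted p = 0.511) within the first library set. The regulatory T cell marker sum, which includes Il2ra, overlapped between all groups (8804 to 27198 over all samples). Il7r, which pairs with Il2rg in the IL-7 receptor and marks naive and memory T cells, had 1661 ± 513 (SD, n = 3) in Nr2f6+/+ IgG2b and 661 ± 306 (SD, n = 6) in Nr2f6-/- anti-PD-L1, a log2 fold change of -1.37 (adjusted p = 0.122), and -1.55 within the first set (adjusted p = 0.103). Naive or memory T cell markers summed to between 7216 and 10459 in the former and between 3174 and 4465 in the latter. Il10rb, the second chain of the IL-10 receptor, was at -0.86 for anti-PD-L1 in Nr2f6+/+ (adjusted p = 0.572) and 0.38 in Nr2f6-/- (adjusted p = 0.793), with an interaction of 1.24 (adjusted p = 0.974). Within the first set Il10rb was at -1.10 and 0.34. Il23r, which pairs with Il12rb1 for IL-23, had 0 reads in all 18 samples, which allows up to the 2.46 to 3.64 normalized counts given above.

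Of the 14 further receptor genes listed with these families, 13 could be tested, and 0 passed the adjusted threshold in any comparison. Their median log2 fold change for anti-PD-L1 was -0.80 in Nr2f6+/+ (4 higher, 9 lower), beside -0.10 for all genes, and -0.53 in Nr2f6-/- (3 higher, 10 lower), beside -0.04. Between genotypes it was -0.06 under anti-PD-L1 and -0.02 under IgG2b. Transcripts of most ligands were at or near 0 in these sorted cells. Of 12 cytokine genes 4 passed the filter, namely Il2, Il21, Il10 and Il18, and 0 passed the adjusted threshold. Il4, Il9 and Il23a had 0 reads in every sample. Il12a, Il12b, Il13, Il15 and Il7 were at 0 in at least 1 group, and their highest single values were 0.942, 21.9, 42.7, 35.4 and 144 normalized counts. Il10, the ligand of Il10ra, averaged 246 ± 186 normalized counts in Nr2f6+/+ anti-PD-L1 and 574 ± 166 in Nr2f6-/- anti-PD-L1 (SD, n = 6 each), a log2 fold change of 1.73 (limma adjusted p = 0.220). Il2, which T cells secrete on activation, was at 0.41 between the same groups (adjusted p = 0.853) and Il21 at -0.29 (adjusted p = 0.929). Il18, made mainly by myeloid and epithelial cells, was between 6.63 and 63.3 normalized counts in Nr2f6+/+ IgG2b and between 0 and 17.0 in Nr2f6-/- anti-PD-L1 (adjusted p = 0.516).

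Downstream, all 14 listed kinases, adaptors and STAT factors were tested and 0 passed the adjusted threshold in any comparison over all samples. Between genotypes under anti-PD-L1 10 were higher and 4 lower, with a median log2 fold change of 0.13 beside 0.00 for all genes, and for anti-PD-L1 in Nr2f6+/+ 4 were higher and 10 lower (median -0.20, beside -0.10). Of the 10 listed target and feedback genes, all tested, 0 passed over all samples. Between genotypes 7 were higher and 3 lower under anti-PD-L1 (median 0.10) and likewise under IgG2b (median 0.40, beside -0.06 for all genes). Socs3, a feedback inhibitor of JAK signaling, had the smallest adjusted p of the target and feedback genes and was picked out after its values were seen. Between genotypes under anti-PD-L1 its log2 fold change was 1.41 (standard error 0.326, limma adjusted p = 0.0634). Within the first library set alone, added after the other results were seen, 2 genes of all 4 lists passed the threshold. That fit called 34 of all 11992 genes between genotypes under anti-PD-L1 and 30 for anti-PD-L1 in Nr2f6+/+. Socs3 was at 2.18 between genotypes under anti-PD-L1 (adjusted p = 0.00704) and at -1.60 for anti-PD-L1 in Nr2f6+/+ (adjusted p = 0.0404), and Stat3, which carries IL-10 and IL-21 signals, at -0.90 between genotypes under anti-PD-L1 (adjusted p = 0.0412). Over all samples Stat3 was at -0.38 between genotypes under anti-PD-L1 (limma adjusted p = 0.468). Socs3 was at -1.39 over all samples for anti-PD-L1 in Nr2f6+/+ (limma adjusted p = 0.201). Ifng, a main product of IL-12 and IL-18 signaling in T cells and likewise picked out after its values were seen, had a log2 fold change of 0.91 in the combination against the control (standard error 0.247, adjusted p = 0.0927, and 0.64 with adjusted p = 0.181 within the first set), with 2623 ± 501 normalized counts (SD, n = 3) in the control and 5168 ± 2089 (SD, n = 6) in the combination.

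**Figure D5:**
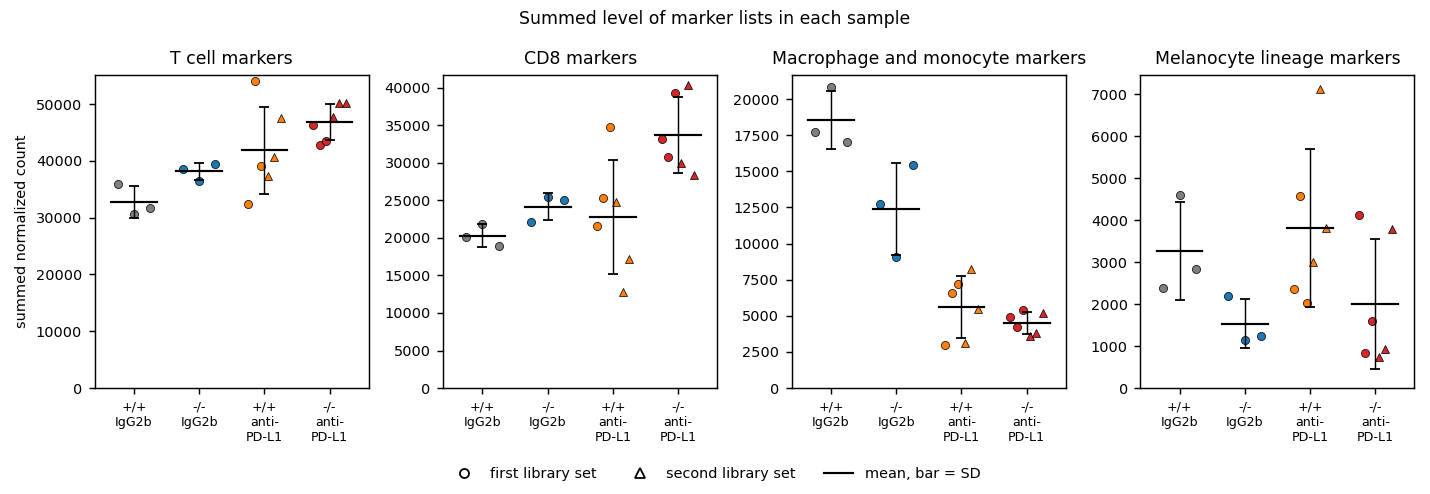
Summed normalized counts (vertical axis, from 0) of 4 marker lists in each sample of the 4 groups, circles for the first and triangles for the second library set, lines for means and bars for the SD (n = 3 with IgG2b, n = 6 with anti-PD-L1). Macrophage and monocyte markers lie between 17058 and 20814 in Nr2f6+/+ IgG2b and at or under 8241 in both anti-PD-L1 groups, and CD8 markers between 28388 and 40404 in Nr2f6-/- anti-PD-L1.

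Markers of CD8 and CD4 T cells were followed as well. The sum of Cd8a and Cd8b1 was between 18935 and 21884 normalized counts in Nr2f6+/+ IgG2b, 22095 and 25416 in Nr2f6-/- IgG2b, 12805 and 34822 in Nr2f6+/+ anti-PD-L1, and 28388 and 40404 in Nr2f6-/- anti-PD-L1. Cd4 ran from 1669 to 7530 over all samples and overlapped between all groups. The CD8 sum of Nr2f6-/- anti-PD-L1 lay above those of both IgG2b groups, and so did its T cell marker sum. The log2 ratio of Cd8a to Cd4 within a sample overlapped between all groups. It was between 0.54 and 1.19 in Nr2f6+/+ IgG2b and 0.11 and 2.19 in Nr2f6-/- IgG2b. With anti-PD-L1 it was between -0.32 and 3.02 in Nr2f6+/+ and 0.95 and 3.08 in Nr2f6-/-. A changed mixture of CD8 and CD4 T cells was thus not shown. Il2rb, Il18r1, Il18rap and Il12rb2 are known to be expressed on effector CD8 T cells, and Il4ra and Il21r on CD4 and CD8 T cells alike. The part of the T cell mixture in the receptor values was not tested.

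The genes most alike in pattern were sought among 8242 genes that averaged 100 normalized counts or more, by Pearson's r of log2(normalized count + 1) over the 18 samples. These values share libraries and are descriptions. The closest single match was that of Il2rg with Cd53, a tetraspanin of leukocytes (r = 0.953), followed by Lgals9 (0.845) and B2m, the light chain of MHC class I (0.829). Il10ra was most like Grk6 (0.875), Map4k2 (0.816) and Mcm5 (0.778), and Il2rb most like Pla2g16 (0.866), Dtd1 (0.856) and Hif1an (0.828). Il18r1 was most like Sp110 (0.860), Cdc27 (0.815) and Il1rn (0.811), and Il18rap most like Pglyrp1 (0.784), H2afz (0.764) and Fkbp2 (0.763). Il4ra was most like Usmg5 (0.823), Cpm (0.795) and Ppp1r14b (0.795), and Il21r most like Emc1 (0.814), Psd4 (0.789) and Smco4 (0.780). Il12rb1 was most like Pqlc2 (0.831), Htatip2 (0.767) and Tmem234 (0.764), and Il15ra most like Yipf4 (0.807), Ndst1 (0.806) and Crtc2 (0.804). Il12rb2 had the weakest matches, Iars2 (0.696), Ticrr (0.686) and Ago1 (0.678). No gene of these lists was a partner chain of its receptor.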

How the data were processed

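RNA sequencing values of 18 samples were taken from the table that the authors deposited, with 18 columns for the 18 samples. Per the labels and the study's methods, the authors removed adapters (Cutadapt), low-quality bases (Trimmomatic) and short reads, aligned to mm10 with STAR, passed unmapped reads to Bowtie2, retained primary alignments, counted reads per gene with HTSeq-count and used DESeq2. The annotation, the strand setting and the versions are not given in the sources used here, so reads of overlapping or antisense genes cannot be told apart. The deposited values are a signal, reads per gene over a size factor of the sample (0.823 to 1.22). Multiplied by it, 100% of the values were whole within a tolerance of 0.01, which gave the reads used for edgeR and DESeq2. No 2 of the 153 pairs of columns were identical.

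The main test was limma (version 3.58.1, R 4.3.3) on log2(value + 1) with eBayes and its trend option, over genes with a mean of at least 10, with contrasts of 4 group means, two-sided p-values adjusted by the Benjamini-Hochberg method and a threshold of 0.05. Fold changes on this scale understate those of genes with low values. Intervals are limma's 95% intervals. The alternatives were pseudocounts of 0.5 and 10, a filter at a mean of 50 or none, scaling to the same total, quantile normalization, only the groups compared, sample weights, the library set as a covariate, each library set alone, the replicate number as a block, edgeR (version 4.0.16), DESeq2 (version 1.42.0) and leaving out each sample in turn. The first library set alone was added for the listed genes after the data had been seen. Samples with the same replicate number did not deviate together (21 pairs, r between -0.03 and 0.04), so no pairing was used.

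The 10 receptor genes, the lists and the rule for naming other genes were chosen with earlier results of these data known. Named were the 10 genes, genes of the lists past the threshold, partner chains and ligands of the 10 and, for each of them, the 3 most alike genes (mean of at least 100, no predicted genes). One gene of the lists is counted there but not reported here on its own. Gene positions are from GENCODE on GRCm38, and upstream sequences and starts from RefSeq on GRCm38.p6.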

Additional observations from a re-analysis of the deposited data

Results flagged for a closer look

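Single samples far from the rest of their group were sought for the 10 receptor genes in the 2 groups of 6 samples, 20 tests in all, of which chance flags about 1 in 20. There were 2 such samples. Il10ra in replicate 6 of Nr2f6-/- anti-PD-L1 was at 3640 normalized counts, while the other samples of the group were between 1253 and 1716. Il12rb1 in replicate 6 of Nr2f6+/+ anti-PD-L1 was at 2044 normalized counts, while the next highest was at 1370 and the lowest at 967. The rule asked for a gap to the next sample of over 0.625 of the range of the group, on unlogged counts. Il10ra was at 0.806, and Il12rb1, at 0.6255, only just passed. Both samples belong to the second library set.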

How the results depend on the processing

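No receptor gene was called in 5 of the 6 comparisons under any alternative that was run. The exception was the combination against the control, where the count of called genes went from 0 to 1, Il4ra in each case: with sample weights (1; log2 fold change -1.29, limma adjusted p = 0.00856), with the library set as a covariate (1; -1.53, adjusted p = 0.0178), within the first library set alone (1; -1.79, adjusted p = 0.0205) and with the replicate block (1; -1.53, adjusted p = 0.0332). Leaving out 1 sample at a time gave counts between 0 and 1, the 1 without replicate 6 of Nr2f6-/- anti-PD-L1 (-1.41, adjusted p = 0.0309). Sample weights, which gave the smallest adjusted p, also called more of all genes in this comparison (300) than the main fit did (74). Over all alternatives the adjusted p of Il4ra in this comparison was between 0.00856 and 0.378, and its log2 fold change between -1.79 and -0.96. The samples share only a replicate number, and 5 of 18 correlated best with a sample of their own number. The replicate block changed no other call of a receptor gene. Of the 14 log2 fold changes of receptor genes with an unadjusted p under 0.05, all 14 kept their sign under every alternative run for them. Over all 10 genes and 6 comparisons, 81 of 1860 values changed sign. Scaling to the same total left the mean marker sums and chain ratios of every group within 1 SD. With 3 samples in each IgG2b group, comparisons with these groups rest on few samples, and the second library set holds none of them.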

Other observations

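Counts of how often a sample held the highest or lowest value of its group over the 10 receptor genes differed between samples. In groups of 3 most samples are at an end by construction, and the counts there were between 4 and 10, the highest in replicate 3 of Nr2f6+/+ IgG2b (10) and replicate 1 of Nr2f6-/- IgG2b (9). In the groups of 6 they were between 0 and 7, the highest in replicate 6 of Nr2f6-/- anti-PD-L1 (7), which had the highest Il4ra (2105 normalized counts), Il12rb1 (1780), Il12rb2 (628) and Il10ra (3640) and the lowest Il21r (3878), Il18r1 (1569) and Il15ra (163).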
